A study of Mus musculus with 163 samples.

Results

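The genes described here encode the machinery that takes a new secretory protein into the endoplasmic reticulum (ER), folds it there and ships it to the Golgi. They were chosen by a rule on the symbol, set with earlier results of these data known. It took the signal recognition particle (*Srp*), translocon (*Sec61*, *Sec62*, *Sec63*, *Ssr*), signal peptidase (*Spcs*, *Sec11*), ER chaperone (*Canx*, *Calr*, *Pdia*), COPII (*Sar1*, *Sec13*, *Sec16a*, *Sec23*, *Sec24*, *Sec31a*), *Sec22*, p24 (*Tmed*) and COPI (*Cop*) genes. Of the 12187 genes measured, 59 met the rule. They were measured in single neurons of the mediobasal hypothalamus of 7 to 9-week-old male mice, strain C57/BL6 Tg(Pomc-EGFP)1Low, fed freely and not treated. The transgene drives green fluorescent protein from *Pomc* regulatory sequence, and cells were sorted one by one on that fluorescence, so the reporter, not the cell's own *Pomc*, chose them. The study asked how far such neurons differ from each other. Because the labels name no animal, plate or batch, all cells count as 1 sample, so every SD is a spread over cells and no p-value is given.

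Peptide hormones such as the *Pomc* product enter the ER lumen while they are being translated. The signal recognition particle halts a nascent chain that carries a signal peptide, the translocon threads it through the membrane, and signal peptidase cuts the signal off. Chaperones and disulfide isomerases fold the chain, the COPII coat buds it towards the Golgi with the help of p24 cargo adaptors, and the COPI coat returns escaped ER proteins.

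Levels are log2RPM, the log2 of a gene's reads scaled to the size of its library, and all cells share a floor of -0.91 (0.532 RPM) that stands for 0 reads. A gene was called detected in a cell at 5 RPM or more. By the rule that set the gene group, cells were described apart by their *Agrp*: 48 cells lay at or above 10 log2RPM (Agrp-high) and the others under it (Agrp-low), with 1 cell just under the limit at 9.99 and the next above it at 10.12. *Pomc* ran from 1.01 through a median of 8.54 to 16.06 log2RPM in the Agrp-low cells, so they spanned almost no *Pomc* to extremely high *Pomc*. In the Agrp-high cells *Npy* ran from 9.99 through 13.21 to 14.79 log2RPM, a much narrower span. All 8 neuronal markers checked were detected in at least 70% of cells. Of 29 markers of glia, vessels, and pituitary, 11 were measured, none of those for microglia and endothelium, and 5 cells, all Agrp-low, held 3 or more of them at 8 log2RPM or above. Among the cells with the least *Pomc* the summed log2RPM of 4 oligodendrocyte markers ran from -1.71 to 16.1, that of 2 precursor markers from -1.82 to 22.4 and that of 3 astrocyte and tanycyte markers from -2.73 to 18. Among those with the most *Pomc* these sums ran from -2.93 to 14.6, from -1.82 to 3.76 and from -2.73 to 6.26. The sum of 2 pituitary markers ran from -1.26 to 7.63 with the least *Pomc* and from -1.28 to 10.1 with the most. In this order, the medians were 5.50, -0.40, -0.80 and 0.96 with the least *Pomc*, and 5.44, -1.82, -1.95 and 0.83 with the most. The highest oligodendrocyte sum in Agrp-low cells, 55.9, lay in neither end. The part of these markers in any relation to *Pomc* was not tested. Recovered depth ran from 1.46 to 41.9 M reads (M, mega), with medians of 8.09 M in Agrp-low and 8.45 M in Agrp-high cells, and no pair of cells was alike enough to be 1 library (highest Pearson's r 0.784).

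Most of the secretory genes were found in almost every neuron. 40 of the 59 were detected in at least 90% of cells, against 22.2% of all genes, and 13 were detected in every cell, against 5.41% of all genes. The 13 were *Srp14*, *Srp9*, *Sec61b*, *Sec61g*, *Sec62*, *Ssr4*, *Spcs1*, *Spcs2*, *Calr*, *Canx*, *Pdia3*, *Pdia6* and *Cope*. The rarest was *Copz2*, a COPI subunit, in 9 cells (5.52%, exact Clopper-Pearson 95% interval 2.56% to 10.2%, which covers counting error only), followed by *Pdia5* in 23.3% and *Sec24d* in 35%. The mean over the 59 genes was 6.16 ± 0.51 log2RPM in Agrp-low cells (SD over cells, range 4.46 to 7.29) and 6.29 ± 0.37 in Agrp-high cells (SD over cells, range 5.44 to 7.27). That mean had a Spearman's rho of 0.128 with *Pomc* in Agrp-low cells and -0.0516 with *Npy* in Agrp-high cells. It went with the number of genes detected per cell (rho 0.421 and 0.615), a measure of library quality whose part in the result was not tested.

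**Figure D1:**
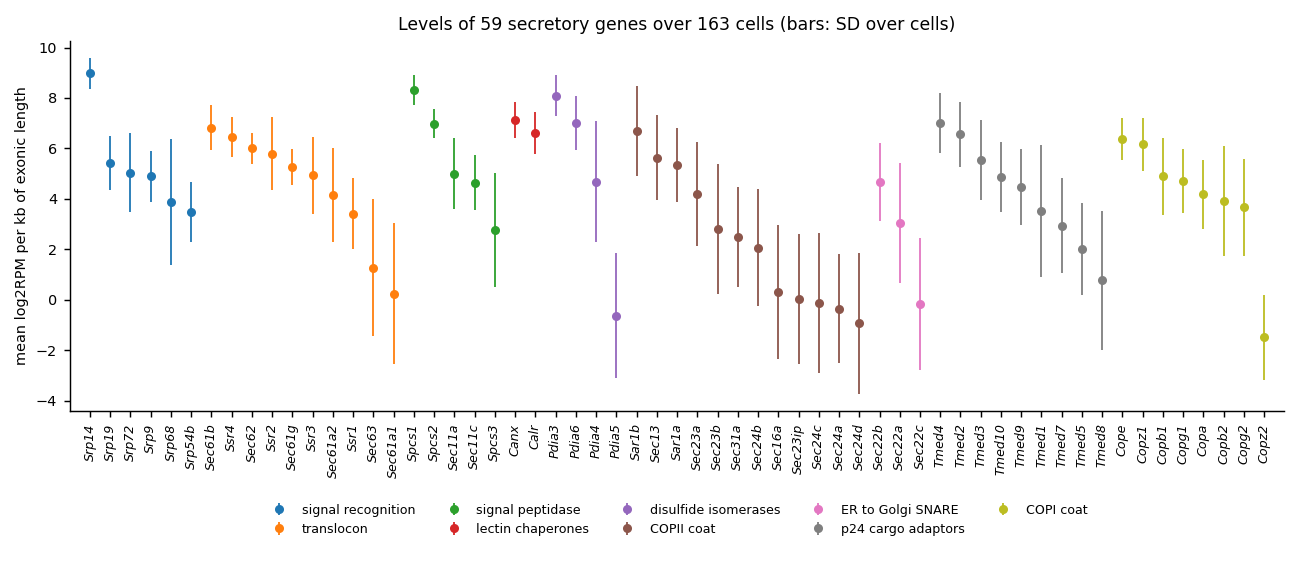
Mean level of each secretory gene over all cells, in log2RPM per kb of exonic length, grouped and coloured by role, with bars for the SD over cells. *Srp14*, *Spcs1* and *Pdia3* stand highest at 8.98, 8.33 and 8.09, and *Copz2* lowest at -1.49.

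Levels of different genes were compared per kb of exonic length. *Srp14*, which with *Srp9* forms the part of the particle that slows translation, was highest at 8.98 log2RPM per kb, above its partner *Srp9* at 4.90. The membrane-anchored peptidase subunit *Spcs1* followed at 8.33 and the glycoprotein disulfide isomerase *Pdia3* at 8.09. Within each role the largest mean log2RPM not corrected for length was that of *Srp14* (9.24 ± 0.62), *Sec62* (8.13 ± 0.62), *Spcs2* (9.07 ± 0.58), *Canx* (9.36 ± 0.70), *Pdia3* (9.74 ± 0.82), *Sec13* (7.30 ± 1.69), *Sec22b* (6.67 ± 1.54), *Tmed4* (8.14 ± 1.19) and *Copg1* (8.17 ± 1.27), all SD over cells. The COPII scaffold *Sec16a*, the COPII-bound *Sec23ip* and the 3 cargo selectors *Sec24a*, *Sec24c* and *Sec24d* lay between -0.93 and 0.32 log2RPM per kb.

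The rank relation to *Pomc* was weak for most of the genes. In the Agrp-low cells 3 of 59 reached a rho of 0.3 with *Pomc*, against 1.51% of all genes, and 0 of 59 reached -0.3, against 1.75%. The 3 were the translocon-associated *Ssr4* (0.340), the translocon subunit *Sec61g* (0.305) and *Srp14* (0.30), and the p24 adaptor *Tmed10* lay just below the limit at 0.299. The median rho over the 59 was 0.0593, against -0.0267 over all genes, and 41 of the 59 had a rho above 0, against 41.7% of all genes. The 59 were detected more widely than genes in general, and these 2 comparisons were not matched for level. These are ranks over cells that share a sort, a protocol and possibly animals, and they carry no p-value. *Pomc* itself had a rho of 0.0329 with depth and 0.0268 with genes per cell, and 4 genes, with *Tmed10* added, reached 0.3 once both were taken out, against 1.62% of all genes. Of the 53 genes detected in at least 50% of Agrp-low cells, 3 reached 0.3, against 2.2% of all such genes, and 0 reached -0.3, against 1.3%.

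*Ssr4* encodes the delta subunit of the translocon-associated complex, which sits beside the channel (ENSMUSG00000002014, chrX:73787027-73790830, GRCm38). Its level was 3.44, 7.76 and 9.33 log2RPM (lowest, median, highest) in the 38 cells with the least *Pomc*, and 6.81, 8.46 and 9.77 in the 38 with the most. The ranges overlapped widely, and the means differed by 0.73 log2RPM (7.70 against 8.43). It was the only one of the 3 with a rho above 0.3 in each run of cell numbers: 0.419 in cells 1 to 66 (n = 34), 0.324 in cells 67 to 98 (n = 27) and 0.322 in cells 99 onwards (n = 54), a split that uses only the number in each cell's label and is not stated to be a batch. *Pomc* itself differed between these runs, with medians of 6.47, 10.7 and 8.54 log2RPM in Agrp-low cells. The pooled rho and the differences from least to most *Pomc* thus mix run with *Pomc*, and the part of the run was not tested.

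*Srp14* (chr2:118475849-118479711) had 6.90, 9.18 and 9.76 log2RPM in the cells with the least *Pomc*, and 7.75, 9.36 and 10.27 in those with the most. The shift of the mean was 0.43 log2RPM, small beside the spread over cells. Its rho was 0.418, 0.553 and 0.0321 in the 3 runs of cell numbers, so it was not seen in the last. *Sec61g* (chr11:16500529-16508484) had 4.73, 6.44 and 7.54 log2RPM at low *Pomc* and 5.63, 6.78 and 7.99 at high *Pomc*, a difference of 0.49 in the means, with a rho of 0.494, 0.181 and 0.189 in the runs. *Tmed10* (chr12:85340613-85374717), a p24 protein that cycles between ER and Golgi, had -0.54, 7.31 and 9.86 log2RPM at low *Pomc* and 0.75, 7.82 and 9.13 at high *Pomc*, a difference of 0.73 in the means. The number of genes at 0.3 or more fell from 3 to 1 when the 2 cells with the most extreme *Pomc* were left out, with *Srp14* then at 0.276 and *Sec61g* at 0.27.

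The next 6 by rho with *Pomc* were *Tmed4* (0.280), *Sec61b*, a small translocon subunit (0.276), *Spcs2* (0.253), *Pdia6* (0.253), *Pdia3* (0.233) and *Spcs1* (0.229). In cells 99 onwards these had rho between -0.104 and 0.192, against between 0.227 and 0.515 in cells 1 to 66. All 5 signal peptidase genes (*Sec11a*, *Sec11c*, *Spcs1*, *Spcs2*, *Spcs3*) had a rho above 0, with a median of 0.174, but 4 of the 5 were below 0 in the cells numbered 99 onwards. The lowest values were those of *Tmed5* (-0.167), *Sec22c* (-0.16), *Tmed8* (-0.146), the COPI subunit *Copb2* (-0.111) and the particle protein *Srp68* (-0.108). *Tmed5* was -0.479 in cells 1 to 66 and 0.109 in cells 67 to 98.

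The levels of these genes shifted by less than their spread. *Tmed4* had 4.05, 8.01 and 9.57 log2RPM at low *Pomc* and 5.65, 8.55 and 10.09 at high *Pomc*, a difference of 0.51 in the means. *Sec61b* had 3.18, 6.83 and 8.71 log2RPM at low *Pomc* and 4.73, 7.35 and 8.81 at high *Pomc*, a difference of 0.53 in the means. *Spcs2* had 7.22, 8.82 and 10.21 log2RPM at low *Pomc* and 7.40, 9.27 and 10.37 at high *Pomc*, a difference of 0.34 in the means. *Spcs2* supports the catalytic subunits of the peptidase, and the ranges of all 3 overlapped. *Pdia6* had 3.99, 8.55 and 10.77 log2RPM at low *Pomc* and 3.18, 9.36 and 10.33 at high *Pomc*, a difference of 0.42 in the means. *Pdia3* had 6.54, 9.48 and 10.90 log2RPM at low *Pomc* and 7.27, 9.90 and 11.45 at high *Pomc*, a difference of 0.46 in the means. *Spcs1* had 7.15, 8.74 and 9.84 log2RPM at low *Pomc* and 7.23, 9.21 and 10.07 at high *Pomc*, a difference of 0.26 in the means. *Pdia6* and *Pdia3* form and exchange disulfide bonds in the ER lumen. *Tmed5* had 0.29, 5.87 and 8.26 log2RPM at low *Pomc* and 0.75, 5.44 and 7.75 at high *Pomc*, a difference of -1.08 in the means. *Sec22c* had -0.91, 2.46 and 6.43 log2RPM at low *Pomc* and -0.91, 0.66 and 6.62 at high *Pomc*, a difference of -0.79 in the means. *Tmed8* had -0.91, 4.99 and 7.64 log2RPM at low *Pomc* and -0.91, 4.03 and 7.47 at high *Pomc*, a difference of -1.36 in the means. Both p24 genes were at or near the floor in some cells of each end. *Copb2* had -0.35, 7.28 and 8.54 log2RPM at low *Pomc* and -0.91, 6.76 and 9.0 at high *Pomc*, a difference of -1.23 in the means. *Srp68* had 0.05, 6.36 and 8.15 log2RPM at low *Pomc* and -0.91, 5.75 and 8.11 at high *Pomc*, a difference of -0.33 in the means. *Copb2* and *Srp68* reached the floor or close to it in some cells as well.

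**Figure D2:**
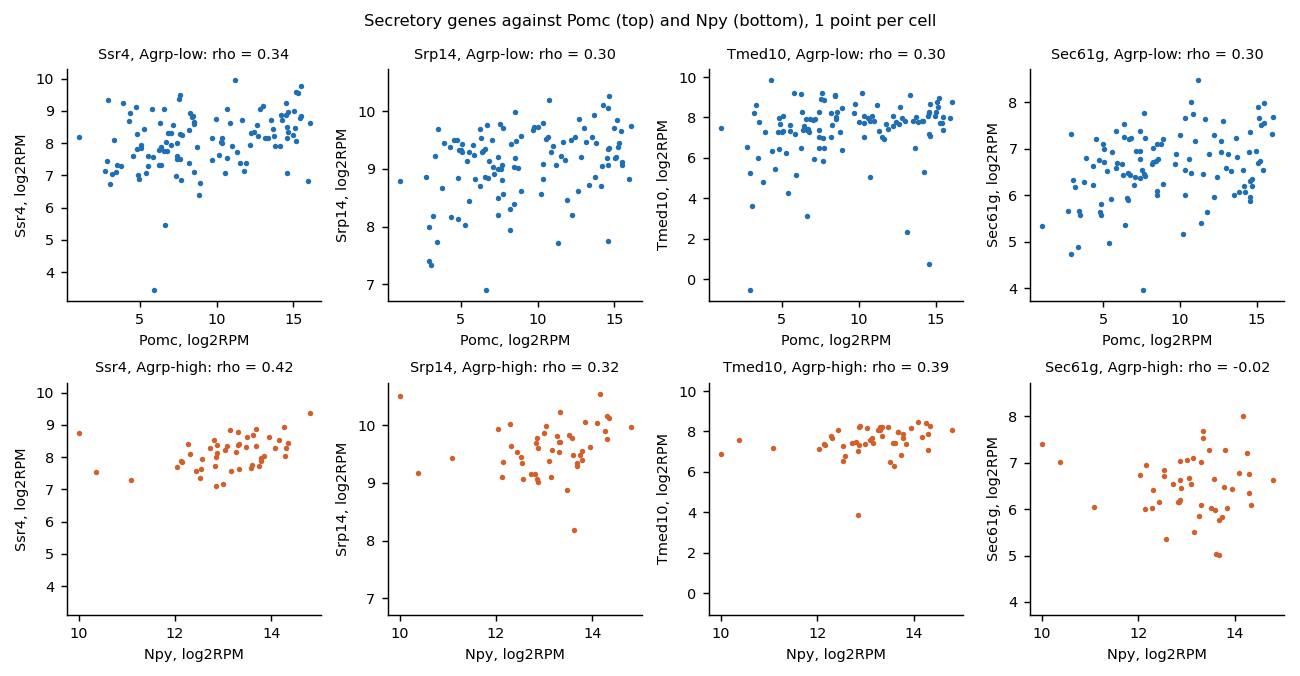
Level of 4 secretory genes (log2RPM, vertical) against *Pomc* in the Agrp-low cells (top row) and against *Npy* in the 48 Agrp-high cells (bottom row), with 1 point per cell. *Ssr4* has a rho of 0.34 and 0.42, while *Sec61g* has 0.30 with *Pomc* and -0.02 with *Npy*.

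Differences in mean level were also modest. From the least to the most *Pomc*, 3 genes were higher by at least 1 log2RPM, against 5.5% of all genes, and 3 were lower by at least 1, against 7.49%. The 3 higher were *Sec24d* (1.32), *Sec23b* (1.16) and *Pdia5* (1.12), and the 3 lower *Tmed8* (-1.36), *Copb2* (-1.23) and *Tmed5* (-1.08). These shares are near the background. With 5 RPM added to each value before the log, 0 of the 59 were higher by 1, against 1.63% of all genes.

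In the Agrp-high cells the relation to *Npy* was also weak for most of the genes. 4 of 59 genes reached a rho of 0.3, against 2.91% of all genes, and 1 reached -0.3, against 7.38%. The 4 were *Ssr4* (0.416), the catalytic signal peptidase subunit *Sec11c* (0.390), *Tmed10* (0.389) and *Srp14* (0.321). *Srp14* and *Ssr4* were thus the 2 of 59 at 0.3 or more with both peptide genes, against 0.246% of all genes. The median rho of the 59 was 0.0428, against -0.0562 over all genes, again not matched for level. *Npy* had a rho of -0.410 with genes per cell, 0.198 with depth and 0.676 with *Agrp*. The part of *Agrp* in the relations to *Npy* was not tested. With depth and genes per cell taken out 5 genes reached 0.3 (*Ssr4*, *Sec11c*, *Pdia3*, *Tmed10*, *Cope*), against 2.27% of all genes, and *Srp14* was at 0.182. *Sec23a* then stayed the 1 gene at -0.3 or less, against 4.22%. Of the 56 genes detected in at least 50% of Agrp-high cells 4 reached 0.3, against 4.57% of all such genes, and 1 reached -0.3, against 3.57%.

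*Ssr4* had 7.10, 7.77 and 8.76 log2RPM in the 16 cells with the least *Npy* and 7.72, 8.31 and 9.38 in the 16 with the most, a difference of 0.51 in the means. *Sec11c* had 5.04, 6.86 and 7.61 log2RPM at low *Npy* and 6.53, 7.37 and 8.05 at high *Npy*, a difference of 0.69. *Tmed10* had 3.85, 7.31 and 8.07 at low *Npy* and 6.30, 7.89 and 8.45 at high *Npy*, a difference of 0.63. The groups overlapped for each gene. Within cells 1 to 66, the only run with enough Agrp-high cells (n = 32), rho was 0.416 for *Ssr4*, 0.381 for *Sec11c*, 0.437 for *Tmed10* and 0.144 for *Srp14*. Median *Npy* in Agrp-high cells was 12.94 log2RPM in this run, 13.74 in cells 67 to 98 and 13.34 in cells 99 onwards. The part of the run in the pooled relations to *Npy* was not tested.

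After these came *Spcs2* (0.293), the COPI subunit *Cope* (0.280), *Pdia6* (0.271), *Sec22c* (0.258), the translocon-associated *Ssr1* (0.248) and *Pdia3* (0.245). At the other end *Sec23a*, which activates the GTPase of the COPII coat, was at -0.394. The COPII genes *Sec23b*, its paralog, and *Sec24b* followed at -0.285 and -0.279, with *Pdia5* at -0.261 and *Copb2* at -0.22. Under the alternative settings *Sec23a* ran from -0.403 to -0.342, *Sec23b* from -0.396 to 0.0208 and *Sec24b* from -0.306 to -0.124. *Sec23a* had 6.37, 7.79 and 8.51 log2RPM at low *Npy* and 2.14, 6.54 and 8.61 at high *Npy*, so at high *Npy* its range reached much lower. From the least to the most *Npy*, 0 of 59 genes were higher by at least 1 log2RPM, against 3.45% of all genes, and 5 were lower by at least 1, against 15.7%. The 5 were *Sec24b* (-2.42), *Pdia5* (-1.43), *Sec23a* (-1.22), *Sec16a* (-1.03) and *Sec63* (-1.0). The median of *Sec63* was not lower (5.47 log2RPM at low *Npy*, 5.56 at high *Npy*), and its rho was -0.0877. Its lowest cell was at 1.22 at low *Npy* and at -0.91 at high *Npy*.

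Among the genes with the higher rho, *Spcs2* had 8.65, 9.15 and 9.51 log2RPM at low *Npy* and 8.84, 9.35 and 9.83 at high *Npy*, a difference of 0.28 in the means. *Cope* had 5.38, 8.35 and 9.20 log2RPM at low *Npy* and 7.11, 8.61 and 9.22 at high *Npy*, a difference of 0.29 in the means. *Pdia6* had 8.35, 9.01 and 9.68 log2RPM at low *Npy* and 8.67, 9.39 and 10.10 at high *Npy*, a difference of 0.39 in the means. *Cope* is a small subunit of the COPI coat, and all 3 overlapped between the ends. *Sec22c* had -0.38, 2.90 and 7.88 log2RPM at low *Npy* and -0.91, 4.91 and 6.79 at high *Npy*, a difference of 0.94 in the means. *Ssr1* had 5.04, 7.04 and 8.47 log2RPM at low *Npy* and 5.61, 7.52 and 8.78 at high *Npy*, a difference of 0.41 in the means. *Pdia3* had 8.11, 9.71 and 10.90 log2RPM at low *Npy* and 8.93, 9.99 and 10.43 at high *Npy*, a difference of 0.29 in the means. *Ssr1* is the alpha subunit of the translocon-associated complex. *Sec23b* had 0.91, 7.01 and 8.57 log2RPM at low *Npy* and 0.55, 6.33 and 7.94 at high *Npy*, a difference of -0.62 in the means. *Sec24b* had 3.17, 5.56 and 7.69 log2RPM at low *Npy* and -0.91, 2.37 and 7.39 at high *Npy*, a difference of -2.42 in the means. *Pdia5* had -0.91, -0.60 and 4.71 log2RPM at low *Npy* and -0.91, -0.91 and -0.18 at high *Npy*, a difference of -1.43 in the means. *Sec24b* had the largest shift of the 59 along *Npy*, and its ranges still overlapped. *Copb2* had 5.96, 7.63 and 8.82 log2RPM at low *Npy* and 1.93, 7.14 and 8.29 at high *Npy*, a difference of -0.69 in the means.

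**Figure D3:**
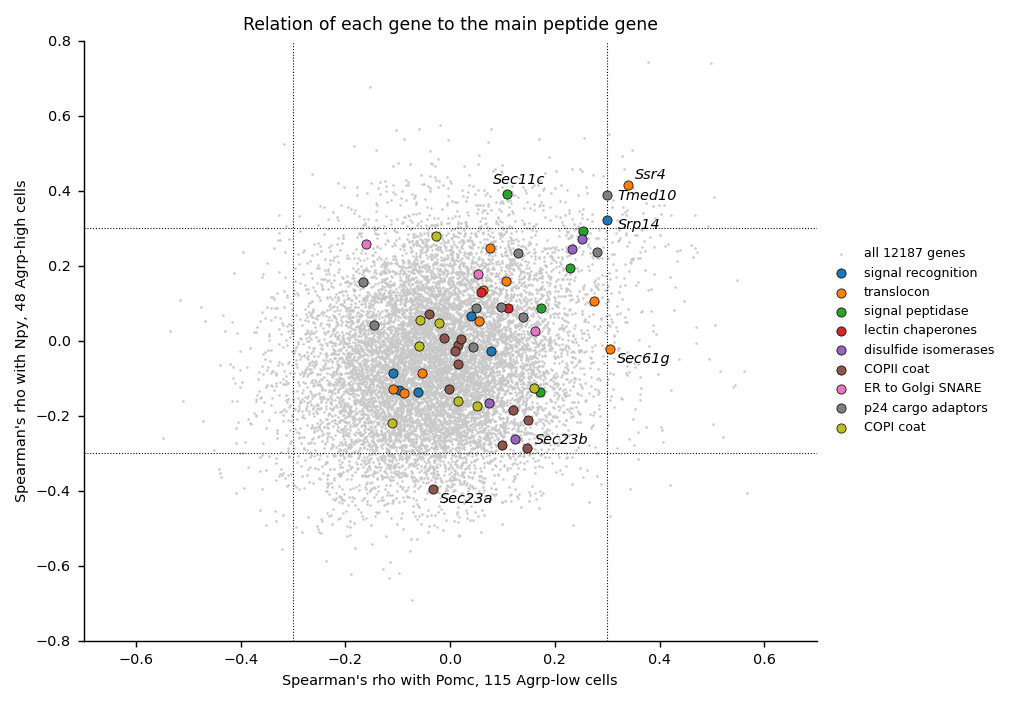
Spearman's rho of each gene with *Pomc* over the Agrp-low cells (horizontal) and with *Npy* over the 48 Agrp-high cells (vertical), all 12187 genes in grey and the secretory genes coloured by role, with dotted lines at 0.3 and -0.3. *Ssr4* and *Srp14* lie in the upper right corner, *Sec23a* below -0.3 on the *Npy* axis.

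By role, the median rho with *Pomc* was highest for the disulfide isomerases (0.178) and signal peptidase (0.174), and lowest for the COPI coat (-0.0246) and the signal recognition particle (-0.0110). For *Npy* it was highest for signal peptidase (0.193) and the *Sec22* genes (0.178), and lowest for the COPII coat (-0.0960). Across the 59 genes the rho with *Pomc* went with exonic length (Spearman's rho -0.409, across genes that are not independent), so shorter genes tended to have the higher values. Over all 12168 genes with a length the same value was -0.0773. The rho with the peptide gene also went with a gene's mean level. For *Pomc* this relation was 0.254 across the 59 and 0.157 across all genes, and for *Npy* 0.527 and 0.380. The part of the level in the median rho of the 59 was not tested. The genes of cytosolic ribosomal proteins, a list added after the values were seen, have a median exonic length of 1.83 kb, and 42 of 75 reached a rho of 0.3 with *Pomc* and 15 with *Npy*, with medians of 0.320 and 0.237. Their part in the values of *Ssr4*, *Sec61g* and *Srp14* was not tested.

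Between the kinds of cell the machinery was close to level. The median difference, Agrp-high minus Agrp-low, was 0.16 log2RPM over the 59 genes and 0.19 over all genes. 1 gene was higher by at least 1 log2RPM in Agrp-high cells, against 8.65% of all genes, and 2 were lower by at least 1, against 2.94%. Rescaling to widely found genes moved the all-gene median to -0.03 and these shares to 5.44% and 4.60%, and left 1 and 2 of the 59 past the limits. The kinds of cell were spread unevenly over the runs of cell numbers. Cells 1 to 66 held 34 Agrp-low and 32 Agrp-high cells, cells 67 to 98 held 27 and 5, and cells 99 onwards 54 and 11. The mean over the 59 genes in Agrp-low cells was 6.06, 5.89 and 6.36 log2RPM in these runs. The part of the run in the differences was not tested.

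The gene higher in Agrp-high cells was *Sec23b* (chr2:144556228-144590749). It had -0.91, 6.03 and 8.84 log2RPM in Agrp-low and 0.55, 6.79 and 8.57 in Agrp-high cells, a difference of 1.44 in the means (5.04 ± 2.80 against 6.47 ± 1.59, SD). The highest cells were alike, while the median was higher in Agrp-high cells and fewer of them were low. *Sec23b* was detected in 75.7% of Agrp-low cells (95% interval 66.8% to 83.2%) and 95.8% of Agrp-high cells (85.7% to 99.5%). Thinned to 3 M reads per cell, leaving out 6 shallower cells (5 Agrp-low and 1 Agrp-high), the shares were 74.5% and 95.7%. Within cells 1 to 66 the difference of *Sec23b* was 1.66, a check added after the values were seen.

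The genes lower in Agrp-high cells were *Sec24d* and *Pdia5*, both under 5 RPM in most cells. *Sec24d* had -0.91, 0.72 and 8.91 log2RPM in Agrp-low and -0.91, -0.19 and 6.25 in Agrp-high cells, a difference of -1.19, with detection in 40.9% (31.8% to 50.4%) and 20.8% (10.5% to 35%) of cells. Within cells 1 to 66 the difference of *Sec24d* was -0.43. *Pdia5* had -0.91, -0.36 and 7.95 log2RPM in Agrp-low and -0.91, -0.84 and 5.24 in Agrp-high cells, a difference of -1.18, and -1.22 within cells 1 to 66. With 5 RPM added before the log the differences were 1.03 for *Sec23b*, -0.69 for *Sec24d* and -0.61 for *Pdia5*. Next came *Tmed1* (0.99), *Sec22c* (0.99), *Copb2* (0.97) and *Srp72* (0.71) on the higher side, and *Tmed5* (-0.72), *Sec11c* (-0.53) and *Copz2* (-0.51) on the lower side. *Tmed1* had -0.91, 4.87 and 9.07 log2RPM in Agrp-low and 0.25, 5.62 and 7.04 in Agrp-high cells, a difference of 0.99 in the means. *Sec22c* had -0.91, 1.33 and 7.39 log2RPM in Agrp-low and -0.91, 3.73 and 7.88 in Agrp-high cells, a difference of 0.99 in the means. *Copb2* had -0.91, 7.27 and 9.0 log2RPM in Agrp-low and 1.93, 7.47 and 9.75 in Agrp-high cells, a difference of 0.97 in the means. *Tmed1* is a p24 protein, and the ranges of all 3 overlapped. *Srp72* had -0.60, 7.87 and 9.33 log2RPM in Agrp-low and 6.0, 8.17 and 9.36 in Agrp-high cells, a difference of 0.71 in the means. *Tmed5* had -0.29, 5.73 and 8.26 log2RPM in Agrp-low and 0.43, 4.94 and 6.67 in Agrp-high cells, a difference of -0.72 in the means. *Sec11c* had 0.92, 7.59 and 10.68 log2RPM in Agrp-low and 5.04, 7.21 and 8.05 in Agrp-high cells, a difference of -0.53 in the means. No pair of ranges was apart. *Copz2* had -0.91, -0.91 and 8.99 log2RPM in Agrp-low and -0.91, -0.91 and 3.91 in Agrp-high cells, so most cells of both kinds were at the floor or close to it.

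**Figure D4:**
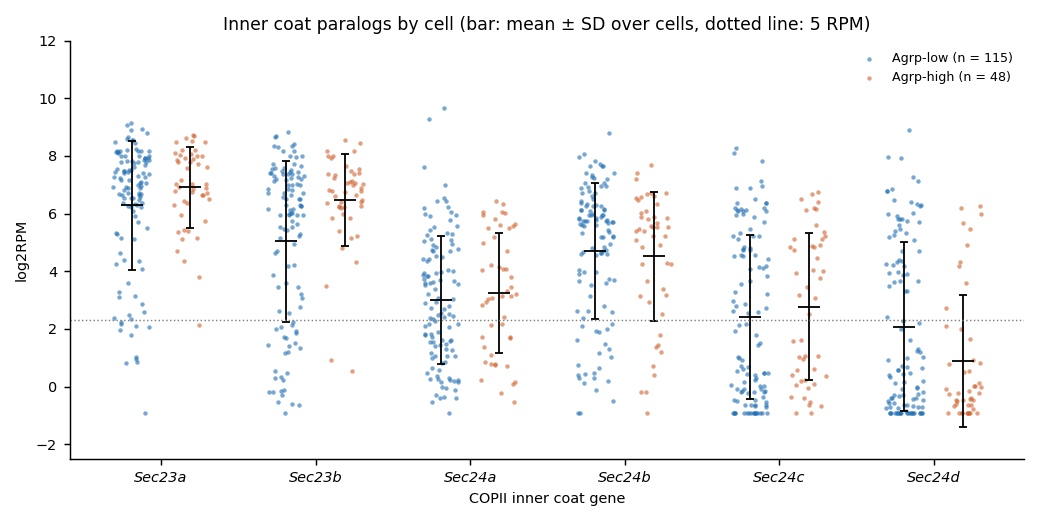
Level (log2RPM) of the *Sec23* and *Sec24* paralogs in each Agrp-low and each of 48 Agrp-high cells, with the mean and SD over cells as bars and a dotted line at 5 RPM. *Sec23b* is detected in 75.7% of Agrp-low and 95.8% of Agrp-high cells, and *Sec24d* in 40.9% and 20.8%.

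Several steps of the pathway have more than 1 gene for a subunit, and their levels were unequal. *Sec23a* was above *Sec23b* by 1.63 log2RPM per kb in Agrp-low and 0.82 in Agrp-high cells. *Sec23a* alone was detected in 26 cells, *Sec23b* alone in 8, neither in 4 and both in the rest. Of the 4 *Sec24* genes, which choose the cargo of the coat, *Sec24b* was highest at 2.06 log2RPM per kb. 63 cells held 2 of the 4, 56 held 3, 25 held 1, 12 held all 4 and 7 held none at 5 RPM.

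Of the small GTPases that start the coat, *Sar1b* was higher than *Sar1a* (6.68 against 5.35 log2RPM per kb). In COPI, *Copz1* stood 7.65 log2RPM per kb above *Copz2*, and *Copg1* stood above *Copg2* (4.71 against 3.66), although *Copg2* shares 17.8% of its exonic length with *Mest* on the other strand. Of the other COPI genes, *Copa*, *Copb1* and *Copb2* lay between 3.91 and 4.89 log2RPM per kb and *Cope* at 6.37. The channel itself showed the largest contrast apart from *Copz1*: *Sec61a2* was at 4.17 log2RPM per kb and *Sec61a1* at 0.25, with *Sec61a1* the higher in 21 cells. The size depends on the averaging, since *Sec61a1* was detected in only 56.4% of cells. Taken as the log2 of the mean RPM per kb, *Sec61a2* was at 4.91 and *Sec61a1* at 2.39. Reads were not counted by strand as far as the sources used here say, and *Sec61a2* shares 909 bases (19.9% of its exonic length) with *Nudt5* on the other strand, so part of its level may belong to that gene.

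The 5 cells with markers of other cell types stood apart in 1 gene of this pair, *Sec61a1*. The other, *Sec61a2*, was at 6.82 log2RPM on average in them, against 6.28 in the other Agrp-low cells. It was detected in 5 of 5 and in 100 of 110. *Sec61a1* was detected in 5 of 5, at 7.35 log2RPM on average, and in 59 of the other 110 Agrp-low cells, at 2.79. *Sec11c* was also higher there (9.47 against 7.48), while its paralog *Sec11a* was lower (4.03 against 7.26), as was *Copg2* (3.01 against 5.96). These genes were picked for some of the largest differences of the 59, and the means rest on only 5 cells. The share of all genes that differ as much was not computed. Of these cells 2 were among the 38 with the least *Pomc*, 3 among the 39 in the middle and 0 among the 38 with the most. Without them 4 of 59 genes reached a rho of 0.3 with *Pomc*, among them *Tmed10* at 0.353 but not *Srp14* at 0.297, and *Sec23b* and *Sec24d* differed between the kinds of cell by 1.39 and -1.24.

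The secretory genes varied together a little more than genes in general. Among the 40 detected in at least 90% of Agrp-low cells, the median rho over 780 pairs was 0.12, against 0.0431 over all pairs of 2466 genes found as widely. In Agrp-high cells it was 0.0613 over 861 pairs of 42 genes, against 0.0169. With depth and genes per cell taken out the medians were 0.109 against 0.0268 in Agrp-low and 0.0346 against 0.00527 in Agrp-high cells. Pairs in the same role were not clearly closer than pairs in different roles: the medians were 0.127 and 0.119 in Agrp-low cells (both near 0.11 with depth and genes per cell taken out) and 0.0525 and 0.0627 in Agrp-high cells. The closest pairs in Agrp-low cells were *Pdia6* with *Pdia3* (0.60), *Pdia4* with *Pdia3* (0.544), *Sec61b* with *Sec61g* (0.53) and *Srp14* with *Spcs1* (0.513). In Agrp-high cells they were *Tmed10* with *Spcs1* (0.519), *Srp14* with *Srp19* (0.497) and *Pdia6* with *Pdia3* (0.496). *Pdia4* with *Pdia3*, second in the Agrp-low cells, was at 0.0993 in the Agrp-high cells. The genes outside the group nearest to its mean in Agrp-low cells were the cytosolic chaperone *Hspa8* (0.588), the chaperonin subunit *Cct7* (0.531), *Maged1* (0.529), *Txnl1* (0.524) and the main ER chaperone *Hspa5* (0.522).

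**Figure D5:**
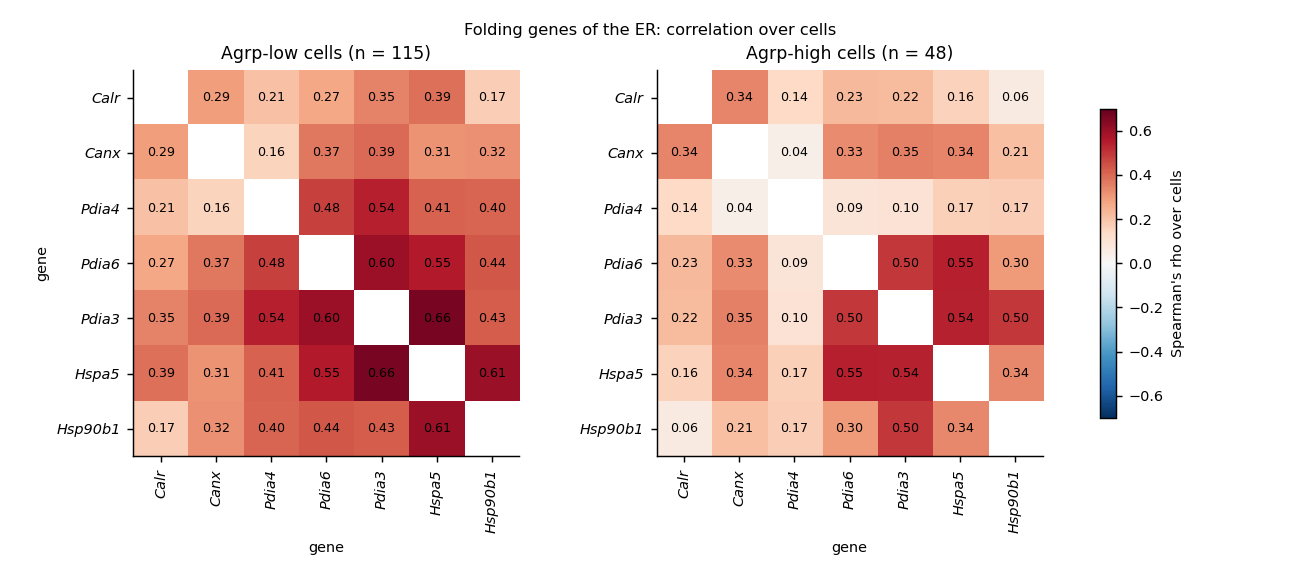
Spearman's rho over cells between 7 folding genes of the ER, in the Agrp-low cells (left) and the 48 Agrp-high cells (right), with the value written in each square. *Pdia3* with *Hspa5* is the highest in the left panel at 0.66, and *Pdia4* with *Pdia3* is 0.54 in the left panel and 0.10 in the right.

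Many folding genes are known to be switched on under ER stress through the ER stress response element, spelled CCAAT, then 9 bases of any kind, then CCACG. Promoter windows of 250 bases before to 50 after the start site (RefSeq, GRCm38.p6) were at hand for 51 of the 59 genes, and both strands were searched. 3 of the 51 held these letters, against 0.182% of the 9351 measured genes with a window and 0.119% of 32851 promoters: the lectin chaperones *Calr* and *Canx* and the disulfide isomerase *Pdia6*. These 3 are printed because they are the folding genes of the group with the element, with its letters in capitals, each read 5′ to 3′ on the strand of its gene.
*Calr* (chr8:84846882-84847181, minus strand, element on the reverse strand): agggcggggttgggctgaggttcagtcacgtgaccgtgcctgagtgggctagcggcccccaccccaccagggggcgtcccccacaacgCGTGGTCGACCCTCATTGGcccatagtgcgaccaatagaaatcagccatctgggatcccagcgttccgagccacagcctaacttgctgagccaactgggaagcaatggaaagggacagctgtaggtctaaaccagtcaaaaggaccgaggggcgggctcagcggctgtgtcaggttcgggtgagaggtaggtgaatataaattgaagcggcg
*Canx* (chr11:50325624-50325923, minus strand): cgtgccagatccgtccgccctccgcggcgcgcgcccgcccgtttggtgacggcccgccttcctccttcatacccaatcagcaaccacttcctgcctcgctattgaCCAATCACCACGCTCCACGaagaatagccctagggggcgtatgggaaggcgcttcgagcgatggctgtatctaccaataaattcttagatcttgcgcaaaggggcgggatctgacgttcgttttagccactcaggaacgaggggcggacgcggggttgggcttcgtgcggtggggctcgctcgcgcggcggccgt
*Pdia6* (chr12:17266339-17266638, plus strand): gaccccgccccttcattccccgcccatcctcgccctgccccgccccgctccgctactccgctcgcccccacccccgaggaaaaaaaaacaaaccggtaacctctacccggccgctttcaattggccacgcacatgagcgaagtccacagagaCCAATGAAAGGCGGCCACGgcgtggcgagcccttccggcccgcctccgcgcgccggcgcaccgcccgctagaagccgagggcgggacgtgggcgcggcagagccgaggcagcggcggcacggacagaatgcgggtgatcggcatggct

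Outside the group, *Hspa5*, *Hsp90b1*, *Dnajc3*, *Creld2* and *Syvn1* of the pathway lists held the same letters. In Agrp-low cells *Pdia6* had a rho of 0.554 with *Hspa5*, *Calr* of 0.388 and *Canx* of 0.315, and *Pdia3*, whose window does not hold these letters, of 0.664. The 8 letters TGACGTGG of a second element were in the windows of *Copb1*, *Copb2*, *Sec23a* and *Sec24d*, 4 of the 51 genes, against 1.08% of the 9351 measured genes with a window and 0.676% of all promoters. A match is a description of letters only.

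Other genes of the pathway came from lists and were counted at a rho of 0.3 or -0.3. Over all genes 1.51% rose and 1.75% fell with *Pomc*, and 2.91% rose and 7.38% fell with *Npy*, the background for each count that follows. Of 21 ER chaperone and oxidative folding genes, 2 rose in rank with *Pomc* (*Erp29* 0.373, *Hspa5* 0.339) and 0 fell, with a median of 0.173. With *Npy* 1 rose (*Mesdc2* 0.441) and 1 fell (the oxidase *Ero1lb* -0.510). Of 14 genes of the oligosaccharyltransferase, which adds sugars to the chain, and of translocon partners, 2 rose with *Pomc* (*Ostc* 0.335, *Dad1* 0.310) and 1 with *Npy* (*Tusc3* 0.351). Of 15 unfolded protein response genes 0 passed either limit with *Pomc*, and 3 fell with *Npy* (the stress sensors *Eif2ak3* -0.402 and *Ern1* -0.392, and *Ppp1r15b* -0.301). *Eif2ak3* and *Ern1* were detected in only 16.7% and 18.8% of Agrp-high cells.

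Of 13 genes of ER-associated degradation 0 passed with *Pomc* and 1 fell with *Npy* (*Edem3* -0.375). Of 28 Golgi and vesicle fusion partners 0 passed with *Pomc*, 1 rose with *Npy* (*Arf4* 0.313) and 1 fell (the COPI subunit *Arcn1* -0.490). Of 15 genes of dense core vesicles, the stores of peptide, 4 rose with *Pomc*: the granule protein *Vgf* (0.544), the granin *Chgb* (0.397), the prohormone convertase *Pcsk1* (0.350) and *Ptprn* (0.338). Of the same 15, 3 rose with *Npy* (*Scg5* 0.451, *Scg2* 0.438, *Scg3* 0.407) and 1 fell (*Cadps2* -0.323). *Vgf* was 4.12 log2RPM higher on average in the cells with the most *Pomc* than in those with the least, a larger difference than that of any of the 59 genes.

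The genes of the group not yet described were *Srp54b*, which has near-identical copies that its counts may share, *Srp19*, *Ssr2*, *Ssr3*, *Sec31a*, *Sec22a*, *Tmed2*, *Tmed3*, *Tmed7* and *Tmed9*. Their rho ran from -0.108 (*Ssr3*) to 0.140 (*Tmed9*) with *Pomc* and from -0.136 (*Srp54b*) to 0.233 (*Tmed3*) with *Npy*. Some counts can hold reads of a neighbour: *Spcs1* shares 16.3% of its exonic length with *Glt8d1*, *Tmed1* 13.6% with *Dnm2* and *Tmed7* 9.48% with *Ticam2*.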

How the data were processed

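Single neurons were amplified with SMART-Seq v4 and sequenced single-end, with 1 library per cell. Reads were aligned to GRCm38 (Ensembl 74) with TopHat2 2.0.11 and counted with Cufflinks 2.2.1, and the authors normalized them with edgeR and limma. The authors deposited log2 values, log2RPM, for 12187 genes and 163 cells. The methods mention batch correction. The deposited values still move in steps of whole reads: the estimated read number came within 0.1 of an integer for 99.3% of the values between 1 and 20 reads. Depth was recovered from these steps, and the recovery was tested on simulated data. By *Agrp*, 115 cells were Agrp-low and 48 Agrp-high.

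The genes and lists were chosen with earlier results of these data known. Full values are given for the 10 genes with the highest and 5 with the lowest rho with *Pomc* and with *Npy*, the 5 largest differences each way between the kinds of cell, and the largest mean of each role. Of each list up to 4 genes were named, and 5 genes outside the group by likeness to its mean. Spearman's rho and differences of mean log2RPM were computed without tests, since all cells are 1 sample. The cells with the least and the most *Pomc* were the lowest and highest 38 of the Agrp-low cells, and those for *Npy* the lowest and highest 16 of the Agrp-high cells. The within-run class difference and the ribosomal protein list were added after seeing the data. Exonic lengths came from GENCODE M21. Alternatives covered the measure, scaling, depth, cells kept, limits and pseudocount. Python 3.11.15, numpy 2.4.6, pandas 2.3.3, scipy 1.17.1 and matplotlib 3.10.9 were used.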

Additional observations from a re-analysis of the deposited data

How the results depend on the processing

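The labels give no batch and 1 neuron is 1 library. Values of rare genes such as *Copz2*, *Pdia5* and *Sec24d*, under 5 RPM in most cells, are the least certain. After thinning, the shares of Agrp-low cells with these genes detected went from 6.96%, 27% and 40.9% to 6.36%, 30% and 40.9%. In Agrp-high cells they went from 2.08%, 14.6% and 20.8% to 2.13%, 12.8% and 19.1%. The part of depth in these values was not otherwise tested. No paired analysis was possible because there is 1 group and no test. Of the summary counts recomputed, 76 stayed within 1.5 times and 31 did not. No called value of a single gene changed sign, and *Ssr4* ran from 0.322 to 0.419 with *Pomc* and from 0.371 to 0.467 with *Npy*. The cause of each change was not tested unless stated.

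Genes of the 59 rising with *Pomc* (3) were recounted, with the share of all genes in brackets. They numbered 6 in cells with at least 4 M reads (1.94%), 1 without the 2 end cells (1.51%) and 0 at a limit of 0.4 (0.328%). By run they numbered 14 in cells 1 to 66 (8.81%), 8 in cells 67 to 98 (9.09%) and 3 in cells 99 onwards (5.10%). Genes falling with *Pomc* (0) numbered 1, 2 and 1 in the 3 runs of cell numbers (9.42%, 7.46% and 4.78%). Genes rising with *Npy* (4) numbered 8 in cells 1 to 66 (5.10%) and 1 at 0.4 (0.821%). Genes falling with *Npy* (1) numbered 2 by Pearson's r (4.54%), 3 with at least 4 M reads (8.19%), 2 without the end cells (7.42%), 2 in cells 1 to 66 (8.96%) and 0 at 0.4 (1.76%).

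Each percentage in brackets is again the share of all genes. Genes of the pathway lists rising with *Pomc* (8) numbered 4 by Pearson's r (1.45%) and 1 at 0.4 (0.328%). In the 3 runs they numbered 22 (8.81%), 21 (9.09%) and 5 (5.10%). Those rising with *Npy* (6) numbered 14 in cells 1 to 66 (5.10%). Genes higher by 1 at most *Pomc* (3) numbered 0 with 5 RPM added (1.63%) and 1 among genes found in 50% of cells (5.01%). Genes higher by 1 at most *Npy* (0) numbered 1 after rescaling (3.59%), 1 at an *Agrp* limit of 8 (3.13%) and 1 after thinning (3.58%). Genes higher in Agrp-high cells (1) numbered 3 at the limit of 8 (8.85%), which moves 1 cell, and 2 after thinning (8.71%). Genes lower there (2) numbered 0 with 5 RPM added (1.15%) and 0 among genes found in 50% of cells (1.93%). Within cells 1 to 66 they numbered 1 (5.97%), a setting added after seeing the data.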
